A study of Mus musculus with 24 samples.

Results

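The regions described here were bound by Menin, but not by MLL1, in the list of called regions of each protein in NUP98-HOXD13 mouse leukaemia cells kept in DMSO. They were chosen by the called positions in these lists, as the Menin regions on chromosomes 1 to 19 and X that share no base with any MLL1 region. Of the 18644 Menin regions on these chromosomes, 3084 met this rule, or 16.5% (95% Wilson interval 16.0% to 17.1%). The other 15560 shared at least 1 base with MLL1 and serve as the comparison. Both lists were used for the choice, so the count and the fold of the regions are a description and no test was made on them.

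The study mapped proteins on chromatin by immunoprecipitation and sequencing (ChIP-seq) in mouse leukaemia lines that carry a NUP98 fusion, in which part of the nucleoporin NUP98 is joined to HOXD13, HOXA9, JARID1A or NSD1. Cells of all 4 lines grew in medium with cytokines and received DMSO, the solvent, or VTP50469, an inhibitor of the contact between menin and MLL1. NUP98-HOXD13 cells gave Menin and MLL1 lists after 96 h of DMSO or of 2 µM VTP50469, and NUP98-HOXA9 cells gave Menin and H3K4me3 lists under the same conditions. MLL1 was mapped in NUP98-HOXA9 after 72 h of DMSO or 2 µM, in NUP98-JARID1A after 96 h of DMSO or 2 µM, and in NUP98-NSD1 after 96 h of DMSO or 200 nM. The dose of 200 nM is that of the NUP98-NSD1 sample label, while the general treatment text names 2 µM. Every condition had 1 library, so no value has a replicate error and no p-value was computed. Intervals reflect only the counting of regions. Read depth is unknown. The Menin lists of NUP98-HOXD13 held 18826 regions in DMSO and 16706 after VTP50469, and its MLL1 lists held 20154 and 14744. The titles of the Menin and of the MLL1 libraries of NUP98-HOXD13 carry different codes, so the protein and this code cannot be told apart. The labels do not say whether a line is 1 clone.

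Menin is a scaffold protein that holds the amino-terminal end of MLL1, a histone methyltransferase that places methyl groups on lysine 4 of histone H3, and joins it to the chromatin reader LEDGF. In leukaemias with MLL or NUP98 rearrangements this contact is needed for expression of HOX genes and their cofactors, and drugs of the VTP50469 class act on it. Menin also binds proteins outside MLL complexes, among them JunD and several other transcription factors.

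The promoters of the strongest such regions at gene starts are shown first, because they are the places where Menin was called at a promoter and MLL1 was not. The 5 sequences are RefSeq promoter windows of assembly GRCm38.p6, from 250 bases before to 50 bases after an annotated start, written 5′ to 3′ on the strand of the gene. They belong to the 5 regions of highest fold whose summit lay in such a window. Capitals mark every match, on either strand, to 1 of 14 searched motifs. The window of Slc23a2, which encodes a vitamin C transporter, is chr2:132145059-132145358 on the minus strand. That of Pawr, which encodes a pro-apoptotic WT1 regulator, is chr10:108331939-108332238 on the plus strand. Rad51ap2 has the window chr12:11455805-11456104 on the plus strand. Hal, the histidine-degrading ammonia lyase, has chr10:93488518-93488817 on the plus strand. Pnpla3, which encodes a lipid-droplet protein, has chr15:84167566-84167865 on the plus strand.
Slc23a2: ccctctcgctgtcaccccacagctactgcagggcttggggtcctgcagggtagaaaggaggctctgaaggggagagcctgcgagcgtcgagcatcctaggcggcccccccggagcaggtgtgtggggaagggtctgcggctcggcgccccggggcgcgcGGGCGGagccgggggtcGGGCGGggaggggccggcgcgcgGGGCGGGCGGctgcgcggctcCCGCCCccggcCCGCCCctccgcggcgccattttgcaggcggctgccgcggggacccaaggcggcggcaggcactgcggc
Pawr: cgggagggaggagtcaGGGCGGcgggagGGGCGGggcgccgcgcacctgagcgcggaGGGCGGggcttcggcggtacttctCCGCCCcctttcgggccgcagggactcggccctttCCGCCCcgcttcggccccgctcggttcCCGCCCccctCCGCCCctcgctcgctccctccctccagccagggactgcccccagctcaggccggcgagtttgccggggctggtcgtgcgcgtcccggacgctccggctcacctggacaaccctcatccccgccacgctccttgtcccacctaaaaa
Rad51ap2: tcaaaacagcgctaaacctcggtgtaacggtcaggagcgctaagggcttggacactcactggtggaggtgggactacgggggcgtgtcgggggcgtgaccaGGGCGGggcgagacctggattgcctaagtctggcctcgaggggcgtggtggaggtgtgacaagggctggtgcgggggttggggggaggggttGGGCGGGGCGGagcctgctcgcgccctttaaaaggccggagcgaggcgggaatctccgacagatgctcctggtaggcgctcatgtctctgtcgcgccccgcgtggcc
Hal: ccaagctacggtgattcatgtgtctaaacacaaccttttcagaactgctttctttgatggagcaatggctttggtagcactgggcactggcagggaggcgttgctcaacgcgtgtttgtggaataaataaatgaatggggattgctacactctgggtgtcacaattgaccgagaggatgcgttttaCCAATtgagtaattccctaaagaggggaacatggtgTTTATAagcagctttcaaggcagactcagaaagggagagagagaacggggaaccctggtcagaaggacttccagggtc
Pnpla3: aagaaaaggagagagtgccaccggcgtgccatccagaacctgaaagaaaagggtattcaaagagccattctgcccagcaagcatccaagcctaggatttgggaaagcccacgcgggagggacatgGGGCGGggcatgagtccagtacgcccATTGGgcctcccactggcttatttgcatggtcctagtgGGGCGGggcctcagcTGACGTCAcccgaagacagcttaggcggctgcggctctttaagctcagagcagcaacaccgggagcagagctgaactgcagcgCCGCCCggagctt

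The Menin regions covered all 300 bases of the first 4 windows and 275 bases of that of Pnpla3. GC boxes make up all capitals in Slc23a2 (6 matches), Pawr (7) and Rad51ap2 (3). Hal differed from these: its window held 7 CG dinucleotides against 37 in Slc23a2, and its capitals are 1 CCAAT box and 1 TATA box. In Pnpla3 there were 3 GC boxes, 1 CCAAT box and 1 CRE.

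These sites were mostly weak and narrow. Fold here is the authors' enrichment value for each region, and it was compared only within the Menin list. The median fold was 5.81 (range 2.13 to 35.2) without MLL1 and 13.6 with MLL1. A fold of at least 10 was reached by 236 regions without MLL1 (7.65%) and by 10123 regions with MLL1 (65.1%). When all Menin regions were divided into fold quintiles, the share without MLL1 was 46.0% in the lowest, 27.2% in the next, 8.40% in the middle, 0.965% in the fourth and 0.107% in the highest. Width followed the same order, with a median of 312 bp (quartiles 271 and 377 bp, range 241 to 4479 bp) against 548 bp with MLL1. A wide region meets another region more easily, so width is tied to the choice and to the overlap and loss shares below. Only 11 regions reached 1000 bp, and the widest, of 4479 bp at chr18:20624846-20629324, lay 24324 bp from an end of Dsg2. The next widest were 1630 bp at chr17:3009865-3011494, 104402 bp from Scaf8, 1203 bp in Top2a, 1151 bp in Dhx9, 1109 bp in Anln and 1082 bp in Sf3b1.

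**Figure D1:**
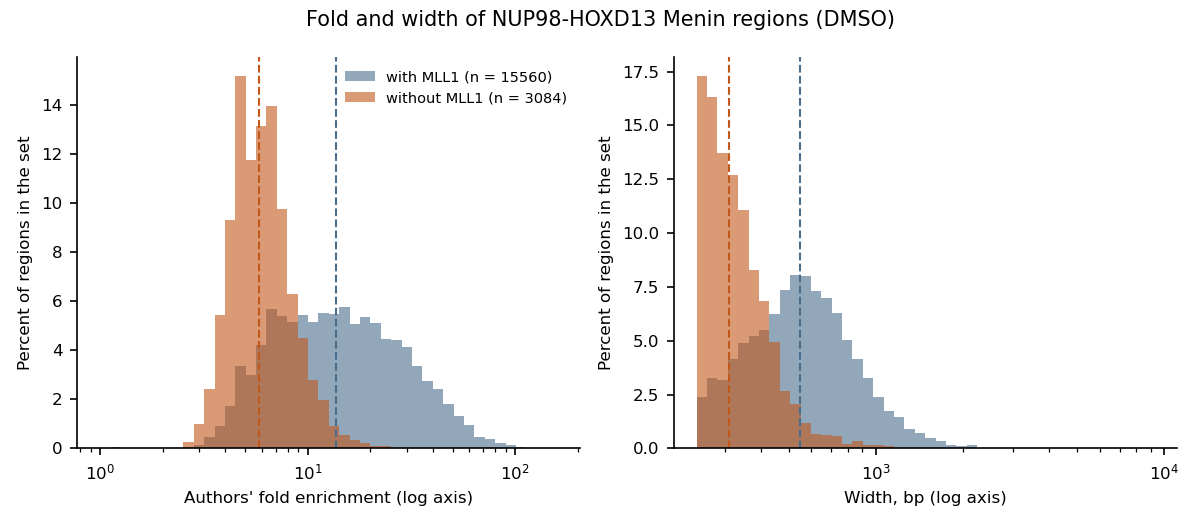
Distribution of the authors' fold enrichment (left) and of width in bp (right), both on log axes, for NUP98-HOXD13 Menin regions in DMSO without MLL1 (orange, n = 3084) and with MLL1 (blue, n = 15560), as percent of each set. Dashed lines mark the medians, 5.81 and 13.6 for fold and 312 and 548 bp for width, and the 2 sets overlap.

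Most of these regions were not at the edge of an MLL1 region. The median gap to the nearest MLL1 region was 16672 bp, and 259 regions (8.40%) had MLL1 within 1000 bp, 39 of them within 200 bp. Just inside the rule, a region 7121 bp from Trim27 (chr13:21172278-21172560, fold 5.47) was separated from MLL1 by 1 bp, and one in Vav3 (chr3:109478418-109478676, fold 4.53) by 2 bp. A region in Pbx3 was 9 bp away. Just outside it, Menin regions in Pura, Rev3l and Bend4 shared 1, 2 and 3 bp with MLL1, and one at the start of Prrc2b shared 11 bp. The share of Menin regions without MLL1 ranged from 12.7% on chromosome 19 to 18.7% on chromosome 6.

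The strongest of all was in the body of Vil1, which encodes the actin-bundling protein villin, at chr1:74415120-74415631. Its fold was 35.2 in the DMSO Menin list and 25.5 in the treated one. MLL1 was not listed there in NUP98-HOXD13 in either condition, while NUP98-HOXA9 had MLL1 at fold 5.67 in DMSO and 7.13 after VTP50469, and NUP98-JARID1A at 5.58 and 14.1. Menin was also listed there in NUP98-HOXA9 in DMSO, at fold 17.1. The site was thus bound by Menin in both lines in which Menin was mapped. Next came a region 132108 bp from the start of Bcl6, the transcriptional repressor, at chr16:24120778-24121356, with fold 28.6 in DMSO and 29.0 after VTP50469. There MLL1 was listed after VTP50469 in NUP98-HOXD13 (fold 16.2), in both conditions in NUP98-HOXA9 (12.4 and 27.4) and NUP98-JARID1A (6.98 and 49.0), and in DMSO in NUP98-NSD1 (4.59). Between Vav1, a signalling protein of blood cells, and Trip10 a region at chr17:57265028-57265437 had fold 25.2 and 23.5, with MLL1 after VTP50469 at 10.8. A region in Foxk1, a forkhead transcription factor gene, differed from these (chr5:142451719-142452031). It had Menin at fold 24.5 in both conditions of NUP98-HOXD13 and 7.36 in NUP98-HOXA9 in DMSO, and MLL1 in none of the 8 MLL1 lists. Far from genes, the next in fold were 14623 bp from Chst11, a chondroitin sulfotransferase gene (21.3 in DMSO, 22.2 after VTP50469), on chromosome X 924256 bp from Cypt1 (19.8 and 13.7), 41936 bp from Zfp644 (19.3 and 10.6) and 67950 bp from Inhba, an activin subunit gene (18.5 and 14.5). Menin was thus listed in both conditions at each of them. These folds come from separate lists, so no change between lists is read from them.

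Relative to protein-coding genes, Menin without MLL1 lay less often at gene starts, and more often in the rest of the gene body, than Menin with MLL1. For 17274 of 21631 genes the gene start is the nearest of the RefSeq promoter starts and the annotated 5′ end of the gene. For the other 4357, whose strand the table lacks, it is either gene end. A summit within 1 kb of a gene start was found for 427 regions, or 13.8% (12.7% to 15.1%), against 57.3% of those with MLL1. The rest of a gene body held 1390 (45.1%, 43.3% to 46.8%) against 21.9%. A further 429 (13.9%) were within 10 kb of a gene and 838 (27.2%, 25.6% to 28.8%) lay farther off, against 8.04% and 12.7%. The annotation used holds gene ends without exons, so no region was assigned to an exon, intron or UTR. The difference at gene starts was also there within fold quintiles: 12.6% against 28.3% in the lowest, 13.8% against 36.5% in the second and 20.8% against 50.2% in the third. The quintiles are broad, so fold can still differ between the sets within a quintile. A tRNA gene lay within 500 bp of 28 regions (0.908%, 0.629% to 1.31%), against 0.630% with MLL1.

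**Figure D2:**
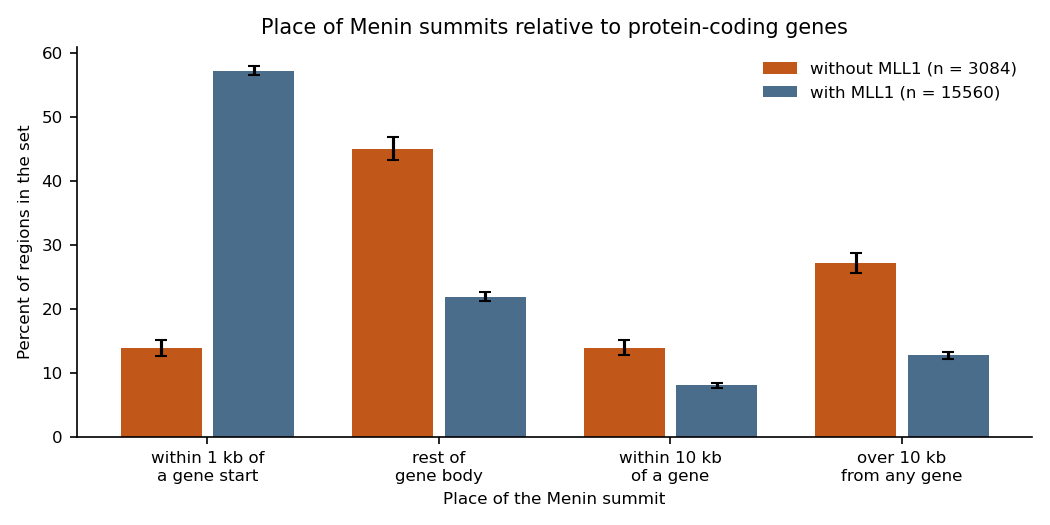
Percent of Menin regions without MLL1 (orange, n = 3084) and with MLL1 (blue, n = 15560) whose summit fell in each of 4 places relative to protein-coding genes. Bars carry 95% Wilson intervals, and gene starts held 13.8% of the first set and 57.3% of the second.

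At gene starts the regions without MLL1 touched 446 genes (2.06% of all), among them 339 that had no MLL1 region within 1 kb of the start. The highest fold was at Slc23a2 (chr2:132144892-132145466), with 23.4 in DMSO and 16.8 after VTP50469. MLL1 was listed there in both conditions of NUP98-HOXA9 (7.09 and 5.51) and of NUP98-JARID1A (5.39 and 4.56), and in NUP98-NSD1 in DMSO (6.34). H3K4me3 in NUP98-HOXA9 was listed at 10.5 in DMSO and 6.97 after VTP50469. At Pawr (chr10:108331835-108332311) the Menin fold was 18.9 and 13.2, and MLL1 appeared in NUP98-HOXD13 after VTP50469 at 8.26. Rad51ap2 (chr12:11455753-11456223) had Menin at 16.9 and 18.4 and MLL1 after VTP50469 at 5.46. Both starts thus had a called MLL1 region in the treated library only. The regions were chosen to lack MLL1 in DMSO, so a loss of it could not be seen. Acad9, a mitochondrial complex I assembly factor gene, had Menin at 16.1 and 13.2 and no MLL1 in this line in either condition. Hal (chr10:93488430-93488904) had Menin at 15.4 and 7.78 and MLL1 after VTP50469 at 10.6, and in NUP98-JARID1A MLL1 stood at 18.5 in DMSO and 43.1 after VTP50469. Plxna1, a semaphorin receptor gene, kept Menin (13.4 and 8.54), as did Gm46382 with Cep170b (13.0 and 10.4) and Apcdd1 (13.0 and 8.28). For Acad9, Plxna1 and Apcdd1 the strand is lacking, so the region lies near a gene end that may not be the start. Menin was no longer listed after VTP50469 at Amot, which encodes angiomotin (fold 13.9 in DMSO), or at Pnpla3 (13.4).

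Over all protein-coding genes, 2.06% had such a region at their start and 44.4% had Menin with MLL1 there, and the gene lists are read beside these shares. None of 39 Hox genes and none of 27 menin-MLL leukaemia targets had one, counts too small to differ visibly from that share, while 13 and 17 of them (33.3% and 63.0%) had Menin with MLL1. Within the gene body the count was 10 of 27 targets (37.0%) beside 5.33% of all genes: Bcl2, Dach1, Eya1, Flt3, Mbnl1, Mef2c, Myb, Pbx3, Rnf220 and Runx2. A Pbx3 region among these lay 9 bp from an MLL1 region, at fold 3.09 and −log10 q 2.31. Menin with MLL1 lay in the body of 20 of the same 27 targets, beside 2327 of 21631 protein-coding genes. The targets are longer genes, with a median length of 133.9 kb beside 17.3 kb over all protein-coding genes. The part of length in these counts was not tested. In Runx2, a transcription factor gene, the region chr17:44609758-44610089 had Menin at fold 13.2 in DMSO and 24.6 after VTP50469, and Menin at 16.8 in NUP98-HOXA9 in DMSO. In Bcl2, the anti-apoptotic gene, Menin was listed at 8.87 and 7.51, with MLL1 after VTP50469 at 6.23. At Flt3, a receptor kinase of progenitors, and at Dach1 the regions (7.06 and 7.25) were not listed after VTP50469. Among 15 stem and progenitor regulators Kit had a region at its start, and Erg, Etv6, Fli1 and Runx1 had one in the body. An MLL1 region also lay within 1 kb of the Kit start. Menin with MLL1 lay in the body of 8 of the 15. The Etv6 region (fold 9.55) and both listed Runx1 regions (6.80 and 5.24) were lost under VTP50469. That of Fli1 (6.60), only 39 bp from an MLL1 region, was kept at 6.85.

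Of 21 myeloid differentiation genes, 3 had a region at a gene start as defined above, 2 of them with no MLL1 region within 1 kb of it. For Cebpd and Cebpe the strand is lacking. Their regions lie 621 and 936 bp from a gene end that may not be the start. Cebpd, a C/EBP transcription factor gene, had Menin at 8.64 and 5.78, and Itgam, the integrin chain CD11b, at 5.92 and 3.70. Cebpe, needed for late granulocyte maturation, had 3.63 in DMSO and was not listed after VTP50469. In NUP98-HOXA9, MLL1 was listed at Cebpd (7.93 in DMSO, 13.6 after VTP50469) and Itgam (9.52 and 16.6) in both conditions and at Cebpe after VTP50469 (6.81). In NUP98-JARID1A it was listed at all 3 in both conditions. Mitochondrial ribosomal protein genes had 5 of 78 with a region at the start, all 5 with no MLL1 within 1 kb: Mrpl3, Mrpl53, Mrps10, Mrps25 and Mrps31. Mrps10 was the strongest, at 12 in DMSO and 7.48 after VTP50469, with MLL1 after VTP50469 at 5.22. None of 84 cytosolic ribosomal protein genes had one at the start. Menin with MLL1 stood at the start of 71 of the mitochondrial and 79 of the cytosolic ribosomal protein genes (91.0% and 94.0%). Among 23 genes of MLL and menin complexes Ash2l alone had one at the start, and among 16 genes of known menin partners Pparg alone. At gene starts, 1 gene each was also met for oxidative phosphorylation (Ndufs4, 1 of 100), the proteasome (Psma3, 1 of 39), histones (H4c14, 1 of 66), splicing factors (Lsm4, 1 of 61) and translation (Kars, 1 of 104). Gene bodies held regions in 2 oxidative phosphorylation, 4 splicing factor and 3 translation genes (2%, 6.56% and 2.88%), beside 5.33% of all genes. For H4c14 and Lsm4 the strand is likewise lacking, so the gene end met may not be the start. An MLL1 region lay within 1 kb of the start, as defined above, of Psma3, H4c14, Lsm4 and Kars. None lay so near that of Ndufs4, Ash2l or Pparg. Zinc finger genes had 7 of 465 and olfactory or vomeronasal receptor genes 2 of 1465, of which 6 and 2 had no MLL1 region within 1 kb. None was at the start of 7 cyclin-dependent kinase inhibitor, 20 interferon-stimulated, 38 DNA replication or 15 housekeeping genes. Against the 2.06% over all genes, these are small counts at gene starts, and nothing particular to a list is read from them or from the body counts.

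Promoter letters were compared over the RefSeq windows of 300 bases, of which 360 met a Menin region without MLL1 and none with MLL1, and 9853 met Menin with MLL1. CG dinucleotides had a median of 6.00 per 100 bases in the first set and 7.67 in the second, against 2.33 in all 32619 windows. Under 2 CG per 100 bases were found in 13.3% (10.2% to 17.2%) against 3.31% with MLL1 and 43.2% of all. The GC box GGGCGG occurred in 61.9% (56.8% to 66.8%) against 71.4% with MLL1 and 35.9% of all. The ETS motif CCGGAAG occurred in 11.1% (8.27% to 14.8%), against 22.4% with MLL1 and 8.92% of all. NRF1 (GCGCATGC) was in 2.50% against 6.73% and YY1 (AAGATGGCG) in 1.39% against 3.87%, with 2.72% and 1.40% of all windows. The E-box CACGTG was in 6.94% against 11.5% and 7.20% of all, and the CRE TGACGTCA in 1.39% against 3.95% and 1.80% of all. All motifs were searched on both strands. The CCAAT box (CCAAT) was in 34.4% against 39.6% with MLL1 and 37.6% of all, and the AP-1 motif TGACTCA in 4.44% against 2.91% and 5.22% of all. The GATA factor motif AGATAA was in 7.5% against 4.70% and 11.2% of all, and the TATA box (TATAAA) in 6.94% against 5.53% and 13.7% of all. RUNX (TGTGGTT) was in 5.00% against 3.68% and 5.29%, and ZNF143 (ACTACAA) in 3.89% against 4.37% and 3.26%. PU.1 (GAGGAAGT) was in 1.94% against 3.40% and 3.22%, and C/EBP (TTGCGCAA) in 0.278% against 0.386% and 0.184%. No 2 of these motifs contain one another, though matches may overlap. For ETS, NRF1, YY1, the E-box and the CRE, the share of all windows lay inside the interval of the share without MLL1, and the share with MLL1 lay above that interval. The CCAAT box did the same by a slight margin (39.6% with MLL1, upper limit 39.5%). For ZNF143, PU.1, C/EBP, AP-1 and RUNX both shares lay inside the interval. With 360 windows the intervals are wide. The share of all windows includes windows met by Menin. Over the 22406 windows met by no Menin region, ETS was in 2.97%, NRF1 in 0.955% and YY1 in 0.321%. These 3 shares lay below the intervals of the share without MLL1. The E-box (5.30%) and the CRE (0.866%) of these 22406 windows lay inside them. For the TATA box the share without MLL1 was nearer to that with MLL1 than to that of all windows. A match describes letters and not a bound site.

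Under VTP50469, Menin was lost from more of these regions than from those with MLL1. A region is called lost when it shares no base with the treated Menin list of the same line, whose weakest region had a −log10 q of 2.02. Of the 3084 regions, 1704 were lost, or 55.3% (53.5% to 57.0%), against 2019 regions with MLL1 (13.0%) and 20.0% of all Menin regions. Loss followed the DMSO fold: 71.6% of regions without MLL1 were lost in the lowest quintile, 41.7% in the second and 16.3% in the third. With MLL1 the shares were 54.7%, 26.6% and 5.56%, and in these 3 quintiles the intervals of the sets did not overlap. Fold can still differ between the sets within a quintile. None of the 36 and 4 regions without MLL1 in the upper quintiles was lost, which allows a share of up to 9.64% and 49.0% (upper Wilson limits). By place, loss was 59.7% at gene starts, 58.3% in gene bodies, 52.2% within 10 kb and 49.5% farther off, while with MLL1 it ran from 8.50% at gene starts to 21.6% in gene bodies.

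**Figure D3:**
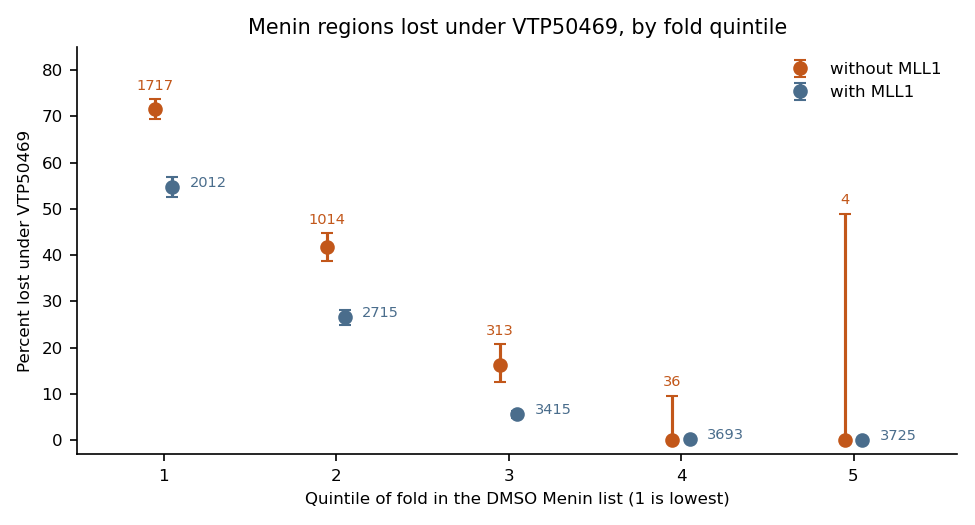
Percent of Menin regions lost under VTP50469 in each quintile of DMSO fold (1 is lowest), without MLL1 (orange) and with MLL1 (blue), with 95% Wilson intervals and the number of regions printed beside each point. In the lowest quintile 71.6% and 54.7% were lost, and in the upper 2 quintiles the points lie at or near 0.

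After Amot and Pnpla3, the strongest lost regions were at the start of Rbpms2 (12.3), in Foxj3 (12.2), 4554 bp from Olfr229 (12) and at the start of Stx1a, a syntaxin gene (11.6). At Rbpms2 and near Olfr229 MLL1 was listed in this line after VTP50469 (4.96 and 11.1) although Menin was not. Among kept regions, the highest folds of the treated Menin list were near Bcl6 (29.0), in Pacs1 (26.9, against 15.7 in the DMSO list), in Vil1 (25.5), in Runx2 (24.6), in Foxk1 (24.5) and near Vav1 (23.5). The 1380 kept regions (44.7%, against 80.0% of all Menin regions) had a median width of 338 bp in DMSO and 321 bp after VTP50469, and 771 were narrower and 601 wider. Their summits moved by a median of 30 bp, and 89.6% stayed within 100 bp. Of the regions with MLL1 that were kept, 10040 were narrower and 3446 wider.

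MLL1 was called after VTP50469 in NUP98-HOXD13 at 634 regions that lacked it in DMSO, or 20.6% (19.2% to 22.0%). The background is 73.4% of all Menin regions, that is 13683 regions, of which 13049 had MLL1 in DMSO too. The treated MLL1 list was the shorter of the pair. Since the choice requires no MLL1 in DMSO, MLL1 could only appear at these sites and not be lost. Of the regions with MLL1 in DMSO, 1256 that kept Menin and 1255 that lost it had no MLL1 after VTP50469. These 634 divide into 478 regions that kept Menin and 156 that lost it, beside 902 that kept Menin with MLL1 in neither condition and 1548 that lost Menin with MLL1 in neither. The 478 had a median fold of 7.78 and the 1548 one of 5.22. The highest MLL1 folds of the treated list were 17.9 at a region 67950 bp from Inhba, 16.9 in Cables1, 16.6 in Coa4, 16.4 at 27967 bp from Kctd12b, 16.2 near Bcl6 and 15.4 in Srbd1. At all 6, Menin was kept and MLL1 was listed in treated NUP98-HOXA9 and NUP98-JARID1A cells. When the same choice was made in the treated pair of lists, 3406 of 16540 Menin regions (20.6%) lacked MLL1. Of these, 899 shared a base with a region of the DMSO set, 1279 with a DMSO Menin region that had MLL1, and 1229 with no DMSO Menin region.

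In other lines MLL1 was met at fewer of the sites than of Menin regions at large. In DMSO, MLL1 was listed at 1225 of them in NUP98-HOXA9 (39.7%, 38.0% to 41.5%; 83.1% of all Menin regions) and at 662 in NUP98-JARID1A (21.5%, 20.1% to 22.9%; 65.9% of all). In NUP98-NSD1 the number was 93 (3.02%; 28.6% of all), from a list of 7064 regions against 22339 in NUP98-HOXA9 and 15632 in NUP98-JARID1A. At least 1 of the 3 lines had MLL1 in DMSO at 1419 sites (46.0%), against 93.4% of regions with MLL1 and 85.6% of all. Within fold quintiles the share was 37.4% against 80.5% with MLL1 in the lowest, 52.6% against 85.3% in the second and 66.5% against 94.2% in the third.

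**Figure D4:**
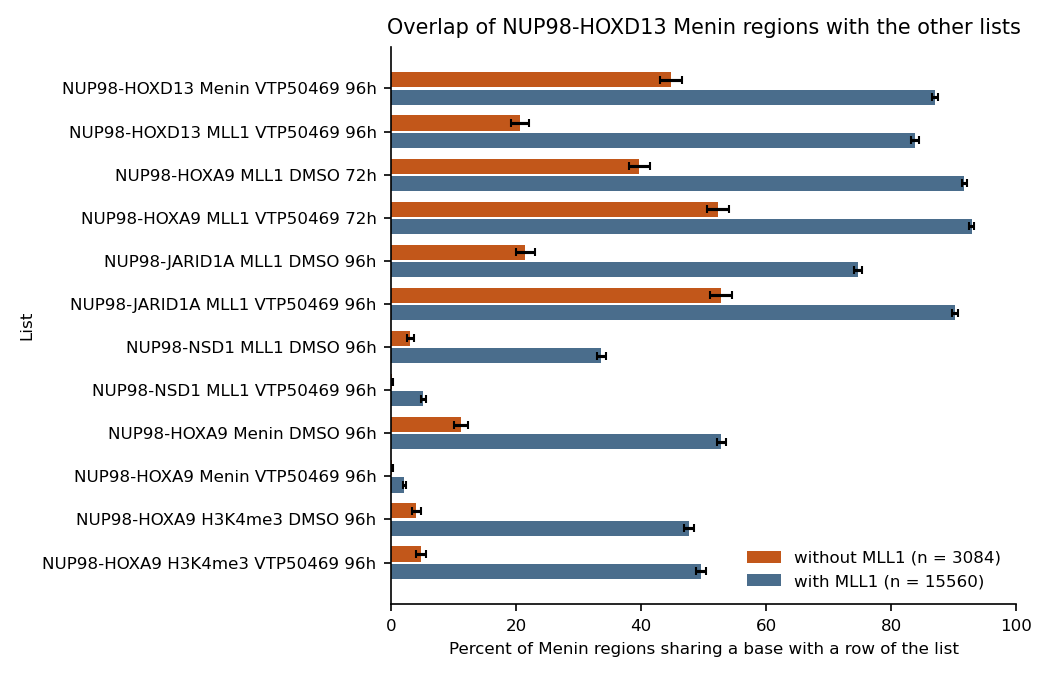
Percent of NUP98-HOXD13 Menin regions without MLL1 (orange, n = 3084) and with MLL1 (blue, n = 15560) that share a base with each of the 12 other lists, with 95% Wilson intervals. The orange bar is below the blue one in every list, and it is longer after VTP50469 than in DMSO for MLL1 in NUP98-HOXA9 and NUP98-JARID1A.

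After VTP50469 the number with MLL1 was 1613 in NUP98-HOXA9 (52.3%; 86.2% of all Menin regions) and 1626 in NUP98-JARID1A (52.7%; 84.1% of all). In NUP98-HOXA9, 574 regions had MLL1 after VTP50469 only (18.6%; 6.70% of all Menin regions) and 186 in DMSO only (6.03%; 3.59% of all). In NUP98-JARID1A the counts were 1000 (32.4%; 19.2% of all) and 36 (1.17%; 1.03% of all). The treated list of NUP98-JARID1A was the longer one, with 24714 regions against 15632, while in NUP98-HOXA9 the lists held 21537 and 22339. NUP98-NSD1, at 200 nM, went the other way: 2 regions had MLL1 after VTP50469 (0.0649%; 4.31% of all), 0 of them gained (0.638% of all) and 91 lost (24.9% of all), in lists of 7064 and 997 regions. Doses and, for NUP98-HOXA9, times differ between lines, so the lines stand side by side without a comparison.

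In NUP98-HOXA9, Menin was listed in DMSO at 343 of the sites (11.1%, 10.1% to 12.3%; 46.0% of all Menin regions) and after VTP50469 at 4 (0.130%; 1.80% of all), from a treated list of 345 regions. Over the 2450 sites that also lacked MLL1 after VTP50469, the DMSO share was 7.06%. The 4 were weak in NUP98-HOXD13, with folds of 2.86 to 3.21: one in Dock2, 2 neighbours on chromosome 4 at positions 3065075 to 3066981, and one 16271 bp from Mid1 on chromosome X. Within fold quintiles, Menin in NUP98-HOXA9 met 4.60% against 9.0% with MLL1 in the lowest, 14.3% against 16.6% in the second and 29.7% against 38.8% in the third. Fold can still differ between the sets within a quintile. H3K4me3 of NUP98-HOXA9 met 123 sites in DMSO (3.99%, 3.35% to 4.74%; 40.5% of all Menin regions) and 145 after VTP50469 (4.70%; 42.2% of all). At gene starts the DMSO share was 21.3% against 76.6% with MLL1, and in gene bodies 2.01% against 12%. Where the Menin summit itself had to lie in the H3K4me3 region, the DMSO share was 2.24% against 12.1% with MLL1. By 1 shared base it was 3.99% against 47.7%. H3K4me3 was measured in another line than the sites. For Menin of NUP98-HOXA9, the share was 11.1% against 52.9% by 1 shared base. With at least 50% of the region covered it was 10.6% against 38.2%.

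MLL1 was in none of the 7 lists not used for the choice at 855 of the sites (27.7%, 26.2% to 29.3%), and so in none of the 8 MLL1 lists. The same held for 242 regions with MLL1 in NUP98-HOXD13 (1.56%) and for 5.88% of all Menin regions. The 855 sites had a median fold of 5.01, and 698 of them (81.6%; 20.0% of all Menin regions) were lost under VTP50469. That median lies in the lowest fold quintile, where 71.6% of regions without MLL1 and 62.5% of all Menin regions were lost. In gene bodies lay 457 of the 855 (53.5%; 25.8% of all Menin regions), and Menin in NUP98-HOXA9 met 10 (1.17%; 46.0% of all). At the other end, 229 sites (7.43%) had MLL1 in 5 or more of the 7, against 69.1% of regions with MLL1 and 58.9% of all. The 229 had a median fold of 8.19, with 34 lost (14.8%; 20.0% of all Menin regions) and 98 with Menin in NUP98-HOXA9 (42.8%; 46.0% of all).

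A few gene bodies held several of the sites, and most regions in those genes had MLL1 in no list. They are a minority of the 457 gene-body sites without MLL1 in any list: 87 lay in genes with 4 or more sites, while 344 lay in genes with 1 or 2. Top2a, which encodes the DNA topoisomerase II alpha of dividing cells (chr11:98992947-99024199, 31.3 kb), held 13 regions, all 13 without MLL1 in any list. Their folds were 3.27 to 5.01 and their widths 271 to 1203 bp, with a median of 645 bp, wider than the 312 bp over all sites. No Menin region with MLL1 lay in the body of Top2a, and 6 of the 13 were lost under VTP50469. Anln, the gene of the cytokinesis protein anillin (58.0 kb), held 9 regions with a median fold of 3.37, of which 8 had no MLL1 in any list and 3 were lost. Cnot1, the scaffold of the CCR4-NOT deadenylase, held 6. Genes with 5 were Sf3b1 and Rbm5, of splicing factors, the RNA helicase gene Dhx9, the RNA-binding protein gene Pcbp2, the importin gene Kpnb1 and Foxp1. In Cnot1 and in each gene with 5 except Foxp1, all regions lacked MLL1 in every list, and in Sf3b1 the median width was 889 bp. Foxp1, a transcription factor gene of 597 kb, differed, since all 5 of its regions (median fold 7.02) had MLL1 in at least 1 other list.

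**Figure D5:**
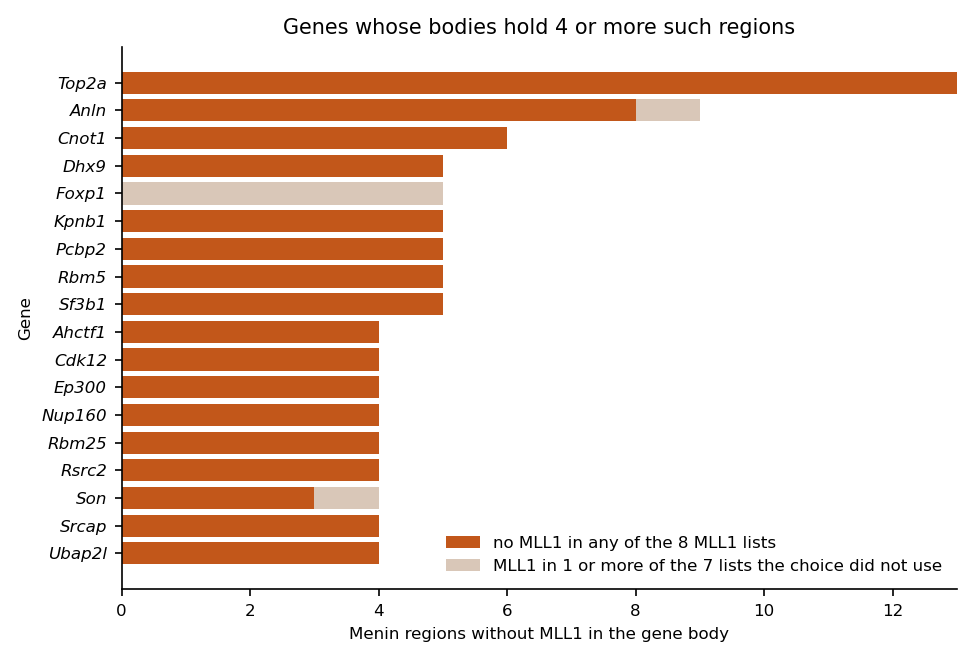
Number of NUP98-HOXD13 Menin regions without MLL1 in the body of each of the 18 genes that hold 4 or more, split into regions without MLL1 in any of the 8 MLL1 lists (orange) and regions with MLL1 in at least 1 of the other 7 (pale). Top2a holds 13, Anln 9, and Foxp1 alone has no orange part.

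In all, 18 genes held 4 or more, with 94 regions, of which 87 (92.6%) had MLL1 in no list. For 15 of the 18 genes this was so of each region. Those with 4 were Ahctf1 and Nup160, of the nuclear pore, Rbm25, Son and Rsrc2, of RNA processing, the kinase gene Cdk12, the acetyltransferase gene Ep300, the remodeller gene Srcap, and Ubap2l. Over the gene-body regions of genes with 1 or 2, the share without MLL1 in any list was 27.8% (344 of 1239) and the median fold 5.69, against 3.88 in the genes with 4 or more. Loss under VTP50469 was 67.0% in the genes with 4 or more against 57.1%. Both median folds lie in the lowest fold quintile (1.09 to 6.15), where 71.6% of all regions without MLL1 were lost. The genes with 4 or more were singled out after their counts were seen, so no test was made.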

How the data were processed

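Of 24 ChIP-seq libraries, 14 had lists of called regions and 10 were input chromatin, not analysed here. Groups follow the line, antibody, agent and time of the labels. The submitters' processing notes give the build as mm10 and name MACS2, bedtools, SAMtools, Picard (2.9.4), STAR (2.7.5a) and bcl2fastq (2.20.0.422). For their settings and for the input behind each list, the entry is: not given in the sources used here. Peaks were called per sample. Each deposited row holds positions, a summit, a fold (ratio) over background, and −log10 values of p and q. The deposited score is 10 times the −log10 q rounded down in nearly all rows and was not used. The weakest regions had a −log10 q of 2.00 to 2.07, so an unlisted region may still hold weaker signal.

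Regions were compared by overlap of at least 1 bp, in Python 3.11.15 with pandas 2.3.3, numpy 2.4.6 and scipy 1.17.1. The interval code was tested on simulated data. Shares carry 95% Wilson intervals. Genes and promoter windows are from RefSeq GRCm38.p6, the same assembly as mm10, matched by position. Named regions are the 10 of highest fold at gene starts, the 6 of highest fold over 10 kb from genes, the 6 widest, the 6 strongest lost, the 6 strongest kept in the treated list, up to 4 for each of 19 gene lists, the 6 of highest MLL1 fold after VTP50469, and those nearest the rule's edge. One region at that edge is not reported here. The strongest of all regions and the genes with many regions were added after their values were seen. The regions and lists were chosen with earlier results of these data known. Alternatives to the −log10 q limit, the overlap rule, list length, the window at gene starts and fold are in the closing section.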

Additional observations from a re-analysis of the deposited data

Results flagged for a closer look

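Over the NUP98-HOXD13 Menin regions without MLL1, the share that met MLL1 moved in opposite directions between lines. After VTP50469 it was 52.3% in NUP98-HOXA9 (39.7% in DMSO) and 52.7% in NUP98-JARID1A (21.5% in DMSO), both higher. In NUP98-NSD1 it was 0.0649% (3.02% in DMSO), which is lower. The difference was not tested, since each condition had 1 library. The sample labels give 200 nM for NUP98-NSD1 and 2 µM for the others, although the general treatment text names 2 µM throughout, and the treated NUP98-NSD1 list held 997 regions, so line, dose and list length cannot be told apart.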

How the results depend on the processing

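Of 76 recomputed values over 9 results, 39 stayed within the counting interval of the reported value (counts within 1.5 times) and 37 moved outside it. The number of sites, 3084, ran from 2450 to 3646. The share lost stayed above that with MLL1 in 11 of 13 settings. In the 2 upper fold quintiles it did not, with 0 lost of 36 and 4, and the share at gene starts was below that with MLL1 in all 11.

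With Menin regions of −log10 q of at least 5, the values were 51.7% lost, 22.7% with MLL1 after VTP50469, 48.2% with MLL1 in another line and a median fold of 6.15. With that limit on MLL1 regions they were 53.3%, 23.5% and 49.7%, with H3K4me3 at 5.40%, gene starts 15.3% and a median width of 318 bp. Without MLL1 in either condition, 63.2% were lost, 39.7% had MLL1 in another line and 7.06% Menin in NUP98-HOXA9, with medians of 304 bp and fold 5.47. With the Menin lists of both conditions at one length, 42.6% were lost, against 9.06% with MLL1. With the DMSO Menin and MLL1 lists at one length, MLL1 in another line was 47.9% and H3K4me3 4.76%. H3K4me3 was 2.94% without MLL1 within 1 kb, 5.49% where MLL1 had to cover the summit, and 2.24% where H3K4me3 had to. Gene starts held 11.6% within 500 bp and 18.5% within 2 kb.

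By fold quintile from the lowest, the share lost was 71.6%, 41.7%, 16.3%, 0% and 0%. The next splits were chosen after seeing the data. In the 3 lower quintiles MLL1 in another line was 37.4%, 52.6% and 66.5%, and Menin in NUP98-HOXA9 4.60%, 14.3% and 29.7%. Gene starts were 12.6% in the lowest and 20.8% in the third, and H3K4me3 was 2.96% in the second. The cause of these shifts was not tested.

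No paired analysis was possible because each condition had 1 library. Read depth is unknown, and with 1 library a condition, line, antibody and library cannot be told apart.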
